A study of Mus musculus with 18 samples.

Results

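The 10 genes described here, Cdh1, Cdh2, Epcam, Snai1, Snai2, Zeb1, Zeb2, Vim, Fn1 and Twist1, are the usual readouts of epithelial-mesenchymal transition (EMT). They were taken by gene symbol, mapped to the gene identifiers of the count table, and all 10 were found among its 55487 genes. RNA was sequenced from mouse embryonic stem cells (mESCs) and from embryoid bodies (EBs), the floating aggregates in which mESCs leave pluripotency, to ask what loss of IκBα, the NF-κB inhibitor encoded by Nfkbia, does to differentiation. The 18 libraries fall into IκBα-WT mESCs (n = 3), IκBα-KO mESCs (n = 3), EBs at 48 hr (n = 6) and EBs at 96 hr (n = 6).

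All libraries come from the ES-E14TG2a line. The KO clones were made by CRISPR-Cas9 cutting in the first exon of Nfkbia and the WT clones came from a scrambled guide, and each library is 1 clone. The mESCs grew on gelatin in serum with LIF, and the EBs formed in suspension in medium without LIF for 48 or 96 hr. By the labels each EB stage holds 3 WT and 3 KO clones. The EB libraries are named by clone codes (D4, E14, E2, E3, H7 and H9) that are not tied to a genotype in the sources used here, so the EBs were compared by stage only, over both genotypes, and the effect of the knockout within EBs was not analysed here. The same 6 codes occur at 48 and 96 hr.

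In an epithelium, cells are held together by E-cadherin (Cdh1) and EpCAM. During EMT the Snail, Zeb and Twist transcription factors repress epithelial genes by binding E-boxes, N-cadherin (Cdh2) appears in place of E-cadherin, and vimentin filaments and fibronectin matrix build up. In the embryo this happens at gastrulation, when epiblast cells pass through the primitive streak. mESCs and epiblast are epithelial in this sense and express Cdh1 at a high level.

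Total counts on genes ran from 28287582 to 40904247 per library. No pair of libraries within a group agreed within sampling noise. KO mESC clone 2 stood apart: the chi-square of its counts per degree of freedom was 53.7 and 60.9 against the other KO clones, beside 8.45 between those and 5.47 to 11.6 between WT clones. Nfkbia, the targeted gene, was at 31.5 ± 5.4 CPM in WT mESCs (SD, n = 3) and 9.92 ± 0.416 CPM in KO mESCs (SD, n = 3), with no overlap. CPM means counts scaled to a common library size after TMM scaling, which corrects for library composition. The summed level of 10 pluripotency markers ran from 5310 to 6460 CPM in the mESCs, from 2800 to 3810 CPM at 48 hr and from 1140 to 3160 CPM at 96 hr. The 8 fibroblast markers summed to between 12.4 and 21.4 CPM in the mESCs, with Lum at 0 in all 3 KO libraries. The 10 primitive and visceral endoderm markers summed to between 14.5 and 19.5 CPM in WT mESCs and between 18.0 and 216 CPM in KO mESCs. Of these, Cubn and Dab2 reached 107 and 74.0 CPM in KO mESCs. Afp, Ttr and Apoa1 stayed at or below 0.235 CPM there, and the others reached 1.28 to 13.8 CPM. The 96 hr EBs of clone E14 stood apart: that library had the lowest summed pluripotency markers and the highest summed fibroblast (49.5 CPM), endoderm (252 CPM) and trophoblast (371 CPM) markers of its stage. These sums rest on few markers and do not name a cell type. Over the 96 hr libraries the trophoblast markers Eomes and Hand1 reached 262 and 87.1 CPM, Elf5 only 0.21 CPM and the others 2.39 to 25.4 CPM. Of the fibroblast markers Pdgfrb reached 19.7 CPM, while Dcn, Lum and Col3a1 stayed at or below 0.689 CPM and the others reached 1.47 to 14.1 CPM. Every stage fit of the 10 genes was repeated without clone E14.

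Snail, Zeb and Twist proteins bind E-boxes, and CACCTG is the form preferred by the Snail and Zeb families. Promoter windows were at hand for 5 of the 10 genes, from RefSeq on GRCm38.p6, and the 250 bases before the transcription start were searched for CACCTG on both strands (on the opposite strand it reads CAGGTG). The 5 genes had 8 windows, and those of Vim and Zeb2 used starts that differ from the annotation used for exon lengths. Snai1 and Epcam held CACCTG and Vim, Zeb2 and Twist1 did not, while 17.2% of all 32851 windows did. Both are printed 5′ to 3′ on the gene's strand with the E-box in capitals, the first because Snai1 is a factor that rose by 96 hr and the second because Epcam is an epithelial gene. A match is a description of these letters and not of binding. In Snai1 the E-box begins 126 bases before the start, and in Epcam the pair begins 187 and 19 bases before it.
Snai1, chr2:167537945-167538194, plus strand: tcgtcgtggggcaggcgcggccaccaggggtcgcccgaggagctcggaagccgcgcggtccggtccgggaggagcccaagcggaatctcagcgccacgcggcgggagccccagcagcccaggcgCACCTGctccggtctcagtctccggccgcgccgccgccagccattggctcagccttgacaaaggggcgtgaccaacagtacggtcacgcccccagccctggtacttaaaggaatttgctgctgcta
Epcam, chr17:87635729-87635978, plus strand: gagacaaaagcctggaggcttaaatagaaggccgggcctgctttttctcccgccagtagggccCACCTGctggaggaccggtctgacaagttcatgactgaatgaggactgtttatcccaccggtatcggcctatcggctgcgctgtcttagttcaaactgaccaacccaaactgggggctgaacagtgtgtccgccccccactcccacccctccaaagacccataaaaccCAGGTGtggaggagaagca

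Levels can be set between genes only per length of exon. In WT mESCs the order by CPM per kb of exon was Cdh1 (105 ± 5.18, SD, n = 3), Epcam (63.1 ± 8.50), Fn1 (60.9 ± 3.64), Vim (15.9 ± 2.61), Snai1 (1.21 ± 0.135), Zeb1 (1.08 ± 0.272), Twist1 (0.844 ± 0.235), Cdh2 (0.573 ± 0.111), Snai2 (0.330 ± 0.122) and Zeb2 (0.0901 ± 0.0150). Epcam and Fn1 overlapped in their range over the clones, and so did Snai1 with Zeb1, Zeb1 with Twist1, and Twist1 with Cdh2. The mESCs thus carried both epithelial adhesion genes and 2 genes usually read as mesenchymal, Fn1 and Vim, at levels far above those of the 5 EMT transcription factors. At 96 hr the medians were 130 for Cdh1, 93.9 for Fn1, 72.3 for Epcam, 14.2 for Vim, 6.17 for Snai1, 3.93 for Cdh2, 1.93 for Twist1, 0.628 for Zeb1, 0.614 for Zeb2 and 0.280 for Snai2.

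**Figure D1:**
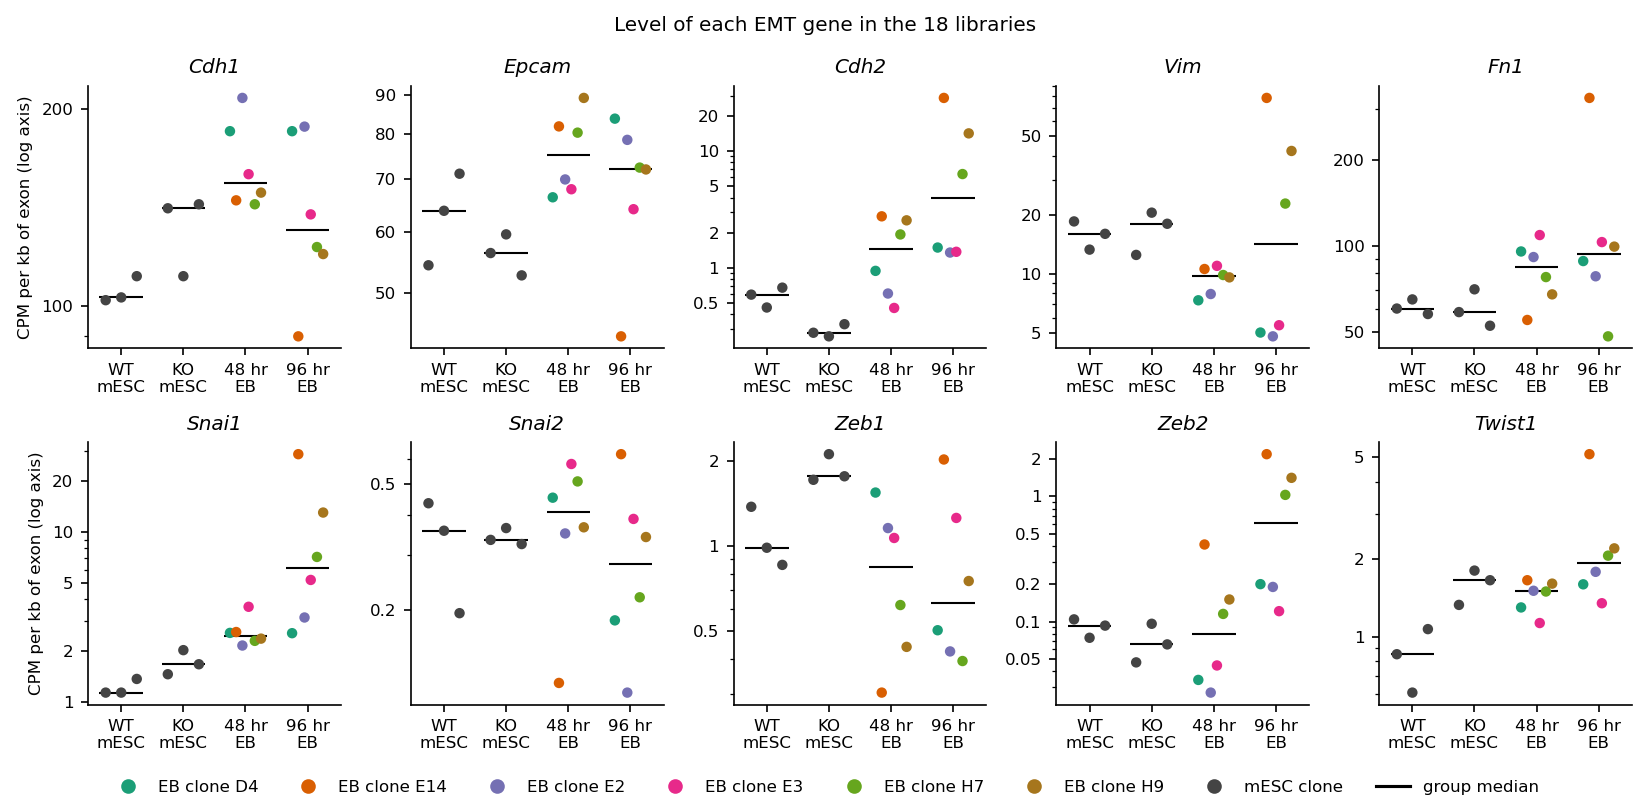
Level of each gene in CPM per kb of exon (log axis) in the 18 libraries by group, 1 point per library, coloured by EB clone code, with the group median as a line. Cdh1 and Epcam stay within a narrow band at every stage, while Cdh2, Snai1 and Zeb2 spread upward at 96 hr, led by clone E14 (Cdh2 at 28.6 CPM per kb).

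The comparison of KO with WT mESCs asks how these genes differ between the KO and WT clones before differentiation starts. With a call set at an adjusted p under 0.05 (edgeR, quasi-likelihood test), 2 of the 10 genes passed, where 4.79% of the 21843 genes tested did. Cdh2 was lower, as were 1.69% of all genes, and Zeb1 was higher, as were 3.09%. At an unadjusted p under 0.05 it was 5 of the 10, beside 21.6% of all genes. Their median log2 fold change was 0.07, beside 0.015 over all genes. The neural and mesenchymal cadherin Cdh2 was at 4.75, 3.68 and 5.45 CPM in the WT clones and at 2.23, 2.08 and 2.64 CPM in the KO clones. No KO clone reached the lowest WT clone, and the log2 fold change was -0.99 ± 0.21 (SE, edgeR adjusted p = 0.0377). Since these are bulk libraries, fewer cells expressing a gene and less RNA per cell cannot be told apart. Zeb1, a repressor of Cdh1 and of epithelial splicing factors, was at 14.2, 10.1 and 8.81 CPM in WT and at 17.7, 21.8 and 18.1 CPM in KO mESCs, again without overlap, with a log2 fold change of 0.80 ± 0.18 (SE, edgeR adjusted p = 0.0480).

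Both calls lay close to the threshold. The adjusted p of Cdh2 rose to between 0.0772 and 0.179 in 5 of the 6 fits that left out 1 library and stayed under the threshold only without KO clone 2, and for Zeb1 it rose to between 0.0984 and 0.218 without WT clone 2, WT clone 3, KO clone 1 or KO clone 3. Neither reached an absolute log2 fold change of 1, which 1.7% of all genes passed together with the adjusted p. Over all genes, the 1046 calls became 318, 0 and 34 without WT clones 1, 2 and 3 and 381, 3736 and 264 without KO clones 1, 2 and 3. The count of 0 (edgeR) stood beside 3104 genes at an unadjusted p under 0.05, and with all 6 libraries DESeq2 called 2133. Of the 10 genes, 4 were called without KO clone 2, 1 (Zeb1) without WT clone 1, and 0 in each of the other 4 fits. The KO results of the wider lists given below rest on the same 6 libraries.

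Another 3 genes did not overlap between the genotypes but failed the adjustment, where 28.9% of all genes tested did not overlap. Twist1, a basic helix-loop-helix factor of mesoderm, ran from 0.985 to 1.75 CPM in WT and from 2.17 to 2.94 CPM in KO mESCs (log2 fold change 0.92 ± 0.26, SE, edgeR adjusted p = 0.0834). Its adjusted p was 0.0402 without KO clone 2 and 0.0257 by DESeq2. Twist1 lies on chromosome 12, where KO clone 2 read low, at -0.46 in log2 CPM minus the WT mean for the median of 24 genes in the 10 Mb window of Twist1 and -0.40 for the chromosome, while Twist1 itself was highest in that clone (1.08, beside 0.68 and 0.99 in KO clones 1 and 3). Snai1, the Snail factor of gastrulation, ran from 1.83 to 2.21 CPM in WT and from 2.35 to 3.26 CPM in KO mESCs (0.50 ± 0.21, SE, edgeR adjusted p = 0.209). The third is Cdh1, at 465 to 509 CPM in WT and 510 to 653 CPM in KO mESCs. The other 5 genes overlapped: the log2 fold changes were -0.17 for Epcam, 0.05 for Snai2, -0.37 for Zeb2, 0.09 for Vim and -0.01 for Fn1, with adjusted p from 0.371 to 0.959. Snai2 had 12 to 30 counts per mESC library, so that only a large difference was detectable at this depth.

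Cdh1 (E-cadherin) lies on chromosome 8, and in the KO mESCs the whole chromosome read high. In log2 CPM minus the mean of the WT mESCs, Cdh1 was at -0.05, -0.03 and 0.08 in the WT clones and at 0.42, 0.08 and 0.44 in KO clones 1, 2 and 3. The median of 85 other genes in the same 10 Mb window was at 0.49, 0.17 and 0.42 in those 3 KO clones, and the median of 709 genes on chromosome 8 at 0.47, 0.28 and 0.42, while the median of the other chromosomes lay between -0.02 and 0.01 in all 6 mESC libraries. The 2 KO clones with the higher Cdh1 were those with the higher window. The fitted log2 fold change of Cdh1 was 0.32 ± 0.10 (SE, edgeR adjusted p = 0.119) and 0.43 without KO clone 2 (adjusted p = 0.000102). With the window level taken out of the fit the value was -0.06 (adjusted p = 0.659), and with the chromosome level taken out -0.08 (adjusted p = 0.577). The genotype and the chromosome 8 level cannot be told apart for this gene. Since all 3 KO clones read high on this chromosome, every comparison of KO with WT mESCs shares this limit. Any effect of that level on genes elsewhere was not tested.

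**Figure D2:**
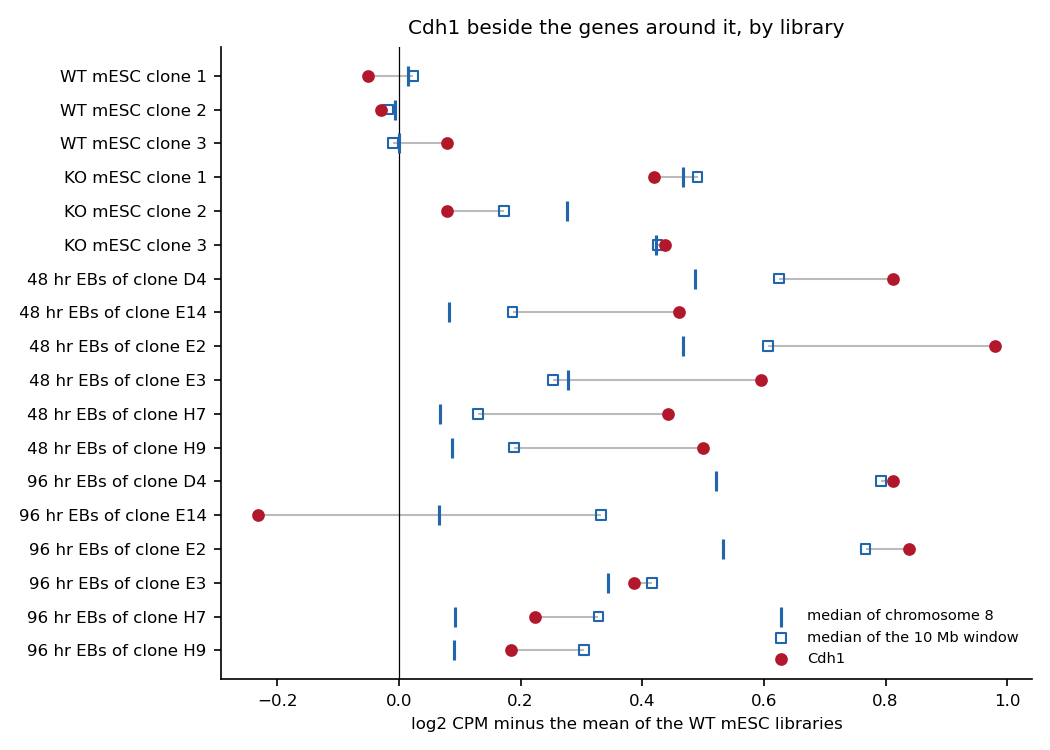
Cdh1 (filled circle), the median of the 85 genes in its 10 Mb window (square) and the median of chromosome 8 (bar) in each of the 18 libraries, as log2 CPM minus the mean of the WT mESCs. In the KO mESCs Cdh1 sits within 0.09 of its window, in all 6 EB libraries at 48 hr it sits above it by 0.19 to 0.37, and at 96 hr it is below it in 4 of 6.

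The EB stages ask how the genes move as the cells leave pluripotency. Between mESCs and 48 hr EBs, 2 of the 10 genes passed the test, both epithelial and both higher, where 27.9% of the 25318 genes tested passed, 14.9% upward. At an unadjusted p under 0.05 it was 3 of 10, beside 38.2% of all genes, and with an absolute log2 fold change over 1 it was 0 of 10, beside 9.57%. Cdh1 ran from 465 to 653 CPM in the 6 mESC libraries and from 655 to 951 CPM in the 6 EB libraries, so the groups did not overlap, and the log2 fold change was 0.48 ± 0.16 (SE, edgeR adjusted p = 0.0302). Epcam, an epithelial adhesion protein, had a lowest, median and highest level of 116, 127 and 156 CPM in mESCs and 146, 165 and 196 CPM at 48 hr (0.35 ± 0.12, SE, edgeR adjusted p = 0.0430). These calls were also near the threshold. That of Cdh1 was lost (adjusted p from 0.0550 to 0.0762) without WT mESC clones 1, 2 or 3, KO mESC clone 2, or the 48 hr EBs of D4 or E2, and that of Epcam (adjusted p from 0.0502 to 0.112) without WT mESC clones 1 or 2, KO mESC clones 1, 2 or 3, the 48 hr EBs of E14, H7 or H9, or the 96 hr EBs of H7.

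The chromosome 8 level also differed among the EB libraries, from 0.07 to 0.49 at 48 hr. Measured against its own window, Cdh1 lay between -0.09 and 0.09 in the mESCs and between 0.19 and 0.37 at 48 hr. The difference of means was 0.32, with 6 of 6 EB libraries above all 6 mESC libraries (two-sided exact permutation test, p = 0.00216, the smallest that 6 against 6 can give; adjusted over 3 comparisons 0.00648). Measured against the whole chromosome the difference was 0.43 with the same p. This measure was added after the data had been seen. The test was unpaired, since any clones shared by the mESCs and EBs could not be matched. Cdh1 was thus higher at 48 hr relative to its neighbours in every EB library.

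No mesenchymal gene passed at 48 hr in the main fit. Without both libraries of clone E14, Fn1 passed and was higher (0.54, edgeR adjusted p = 0.0185). In that fit Cdh1 (0.51, adjusted p = 0.0122) and Epcam (0.33, adjusted p = 0.0168) kept their calls. Cdh2 had a log2 fold change of 1.84 ± 0.72 (SE, edgeR adjusted p = 0.0631), with a lowest, median and highest level of 3.64, 11.6 and 22.3 CPM in EBs against 2.08, 3.16 and 5.45 CPM in mESCs. Its adjusted p was 0.00620 when only the 12 libraries compared were fitted, 0.0203 by DESeq2, and between 0.0319 and 0.0492 without the 96 hr EBs of D4, E14, E2 or E3 or the 48 hr EBs of E3. Vim did not overlap and lay lower in the EBs, at 34.9 to 52.4 CPM against 59.4 to 97.2 CPM, with a log2 fold change of -0.81 ± 0.54 (SE, edgeR adjusted p = 0.291). Snai1 did not overlap either, at 3.47 to 5.86 CPM against 1.83 to 3.26 CPM (0.82 ± 0.45, SE, edgeR adjusted p = 0.191). Of all genes tested, 16.7% did not overlap. When only these 12 libraries were fitted, without the wider 96 hr group, 6 of the 10 genes passed, with Cdh2, Snai1 and Fn1 higher and Vim lower beside the epithelial pair, where 33.5% of the 23931 genes tested in that fit passed, 17.5% upward and 16.1% downward.

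From 48 to 96 hr, 4 of the 10 genes passed the test and all 4 were higher: Cdh2, Snai1, Zeb2 and Vim. Of all genes tested 27.7% passed, 13.9% upward. At an unadjusted p under 0.05 it was 5 of 10, beside 39.8% of all genes. Because the 48 and 96 hr libraries share clone codes, and the 2 libraries of each code deviated together from their stage means (correlation 0.40 to 0.73 across genes), the clone code was also fitted as a block. In that fit 3 of the 10 passed, Cdh2 and Zeb2 higher and Cdh1 lower, where 37.7% of the genes tested passed.

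Cdh2 was higher at 96 hr in 6 of 6 clones. It went from 7.59 to 12.1 CPM in D4, from 22.3 to 231 in E14, from 4.85 to 10.9 in E2, from 3.64 to 11 in E3, from 15.6 to 51.3 in H7 and from 20.5 to 115 in H9. The increase ranged from 1.59-fold to 10.4-fold, and the clones with the higher level at 48 hr, E14, H9 and H7, also had the higher level at 96 hr. The log2 fold change was 2.53 ± 0.71 (SE, edgeR adjusted p = 0.0140), and 1.90 ± 0.36 with the clone code as a block (adjusted p = 0.00575). Without the 96 hr EBs of E14 the adjusted p was 0.0559. Without both libraries of that clone it was 0.0426, with a log2 fold change of 1.94.

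Zeb2, the Zeb factor of mesoderm and neural crest, was also higher in 6 of 6 clones, by 2.72-fold to 9.36-fold. Its levels were 0.680, 8.24, 0.539, 0.887, 2.29 and 3.00 CPM at 48 hr and 3.96, 43.5, 3.77, 2.41, 20.5 and 28.1 CPM at 96 hr in D4, E14, E2, E3, H7 and H9. The log2 fold change was 2.71 ± 0.73 (SE, edgeR adjusted p = 0.0114), 2.66 ± 0.23 with the block (adjusted p = 0.000141) and 2.99 without clone E14 (adjusted p = 0.00475). The call held in every alternative fit run for this comparison. The exons of Zeb2 share 662 bases with other genes, among them the antisense gene Zeb2os, and the strand setting of the counting is not given in the sources used here.

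Snai1 was higher at 96 hr in 5 of 6 clones and level in D4. It went from 4.12 to 4.10 CPM in D4, from 4.17 to 46.5 in E14, from 3.47 to 5.07 in E2, from 5.86 to 8.45 in E3, from 3.69 to 11.5 in H7 and from 3.81 to 21.0 in H9. At 48 hr the highest clone, E3, was 1.69-fold above the lowest, and at 96 hr the clones were spread over 11.3-fold. The log2 fold change was 1.94 ± 0.45 (SE, edgeR adjusted p = 0.00448). With the block it was 1.46 ± 0.49 and the call was lost (adjusted p = 0.0526), and it was 1.26 without clone E14 and without the block (adjusted p = 0.0151).

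Vim, the intermediate filament of mesenchymal cells, moved in both directions. It was higher at 96 hr in E14 (50.3 to 372 CPM), H9 (45.6 to 200) and H7 (46.9 to 108), and lower in D4 (34.9 to 23.9), E2 (37.5 to 22.9) and E3 (52.4 to 26.1). Both genotypes are among these clones, and whether the direction goes with genotype was not tested. The log2 fold change of 1.49 ± 0.54 (SE, edgeR adjusted p = 0.0479) is thus a mean of clones that did not share a direction. With the block it was 0.68 ± 0.62 (adjusted p = 0.432), without clone E14 it was 0.81 (adjusted p = 0.244), and 15 of the 18 fits that left out 1 library lost the call. The 3 that kept it left out the 96 hr EBs of D4, E2 or E3, and over all 18 the log2 fold change ran from 0.80 to 1.71. Fn1 (fibronectin) also went both ways. It was at 643 and 3850 CPM in E14 and at 790 and 1160 CPM in H9, and it was lower at 96 hr in the other 4 clones, at 0.620 to 0.944 of the 48 hr level. Its log2 fold change was 0.59 ± 0.33 (SE, edgeR adjusted p = 0.188), and -0.08 without clone E14 (adjusted p = 0.764).

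Cdh1 did not fall to a low level. It was lower at 96 hr in 5 of 6 clones and level in D4, at 0.619 to 1.00 of the 48 hr value, and the lowest library, E14, still had 411 CPM. Without the block the log2 fold change was -0.23 ± 0.16 (SE, edgeR adjusted p = 0.293). With the clone code as a block it was -0.23 ± 0.08 (adjusted p = 0.0440), and -0.15 without clone E14 (adjusted p = 0.0479). Against its 10 Mb window Cdh1 lay between 0.19 and 0.37 at 48 hr and between -0.56 and 0.07 at 96 hr, and it was lower at 96 hr in 6 of 6 clones, by a mean difference of -0.42 (two-sided exact permutation test over pairs, p = 0.0312, the smallest that 6 pairs can give; adjusted over 3 comparisons 0.0468). Against the whole chromosome the difference was -0.29 with the same p. Without clone E14 these were -0.34 and -0.22, where 5 pairs cannot give a p below 0.0625, which is the value of both (exact permutation test over pairs). Epcam was lower in 4 of 6 clones and higher in 2, with a log2 fold change of -0.14 ± 0.12 (SE, edgeR adjusted p = 0.447).

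**Figure D3:**
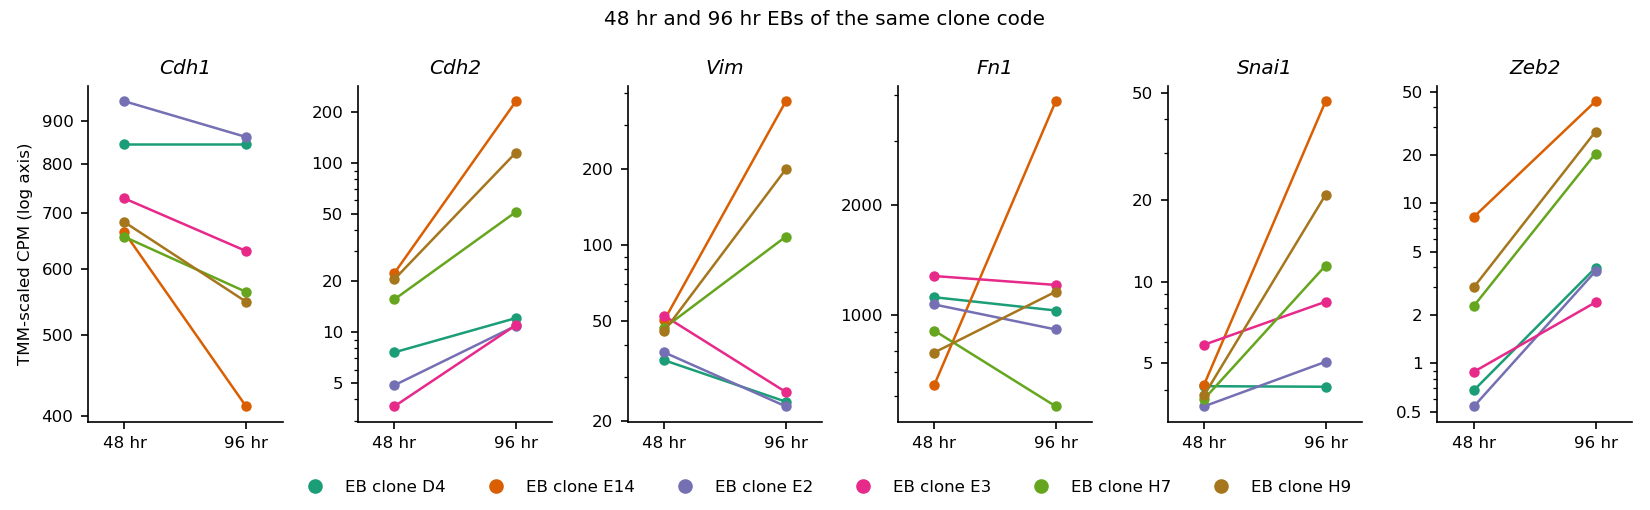
TMM-scaled CPM (log axis) of 6 genes at 48 and 96 hr, with a line for each of the 6 clone codes. Cdh2 and Zeb2 go up in 6 of 6 clones, Cdh1 goes down or stays level, and the lines of Vim and Fn1 cross, with E14, H9 and H7 ending highest for Vim.

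The 3 remaining factors did not pass. Zeb1 was higher in 3 clones and lower in 3, from 0.324 of the 48 hr level in D4 to 6.71-fold in E14 (log2 fold change 0.06 ± 0.43, SE, edgeR adjusted p = 0.932). Its sign was not stable, at -0.54 without clone E14. Twist1 was higher in 6 of 6 clones, by 1.18-fold to 3.11-fold, with E14 the highest at 8.39 CPM and the other 5 clones at 2.20 to 3.59 CPM (0.70 ± 0.31, SE, edgeR adjusted p = 0.0968). Its adjusted p was 0.0560 with the block and 0.0477 without the 96 hr EBs of E3. Without both libraries of clone E14 the log2 fold change of Twist1 was 0.35 (edgeR adjusted p = 0.338). Snai2 had between 7 and 48 counts per EB library and was lower at 96 hr in 5 of 6 clones (-0.35 ± 0.38, SE, edgeR adjusted p = 0.526). Without clone E14, the clone in which it was higher, the log2 fold change of Snai2 was -0.86 (adjusted p = 0.0518). With the block and without E14 it was -0.89 and passed (adjusted p = 0.0342), at these low counts.

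The balance of the cadherins sums this up per length of exon. The ratio of Cdh1 to Cdh2 was 165 to 227 in WT mESCs, 431 to 510 in KO mESCs, 52.5 to 353 at 48 hr and 3.14 to 140 at 96 hr. The chromosome 8 level, which read high in KO mESCs and differed among the EB libraries, was not taken out of Cdh1 here. The KO and WT ranges did not overlap, but 3 against 3 clones cannot give a p below 0.1, which is the value here (two-sided exact permutation test). From 48 to 96 hr the ratio dropped in 6 of 6 clones, from 197 to 124 in D4, 52.5 to 3.14 in E14, 346 to 140 in E2, 353 to 101 in E3, 74.1 to 19.3 in H7 and 58.5 to 8.43 in H9 (two-sided exact permutation test over pairs, p = 0.0312, the smallest that 6 pairs can give). Taken as unpaired stages the difference was within the spread between clones (exact permutation test, p = 0.0844). In every library, E14 at 96 hr included, Cdh1 stayed above Cdh2 per kb. The median ratio of 96 to 48 hr was 0.862 for Cdh1 and 3.16 for Cdh2.

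Between mESCs and 96 hr EBs, which share their libraries with the comparisons above, 5 of the 10 genes passed and all 5 were higher: Cdh2 (log2 fold change 4.38 ± 0.78, SE, edgeR adjusted p = 0.000210), Zeb2 (3.42 ± 0.76, adjusted p = 0.00142), Snai1 (2.76 ± 0.47, adjusted p = 0.000124), Fn1 (1.04 ± 0.33, adjusted p = 0.0162) and Twist1 (0.95 ± 0.31, adjusted p = 0.0194). Of all genes 43% passed, 22.7% upward and 20.3% downward. At an unadjusted p under 0.05 it was also 5 of 10, beside 50.4% of all genes. Cdh2, Snai1 and Zeb2 did not overlap between the stages, and 22.9% of all genes did not. Their lowest 96 hr levels were 10.9, 4.10 and 2.41 CPM beside highest mESC levels of 5.45, 3.26 and 2.07 CPM. Twist1 lost its call without the 96 hr EBs of E14 (log2 fold change 0.58, adjusted p = 0.0632), and the fold of Fn1 shrank to 0.46 without that clone (adjusted p = 0.0305). Another 3 genes that had missed the threshold passed it without the 96 hr EBs of E14: Epcam higher (0.34, adjusted p = 0.00664), Cdh1 higher (0.37, adjusted p = 0.0426) and Zeb1 lower (-1.12, adjusted p = 0.0368). That of Cdh1 was missed again without both libraries of that clone (0.35, adjusted p = 0.0595), and relative to its 10 Mb window Cdh1 was at -0.10 over all 12 libraries (two-sided exact permutation test, p = 0.437). Vim stood at 0.69 ± 0.53 (SE, edgeR adjusted p = 0.319), and at -0.02 without it.

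**Figure D4:**
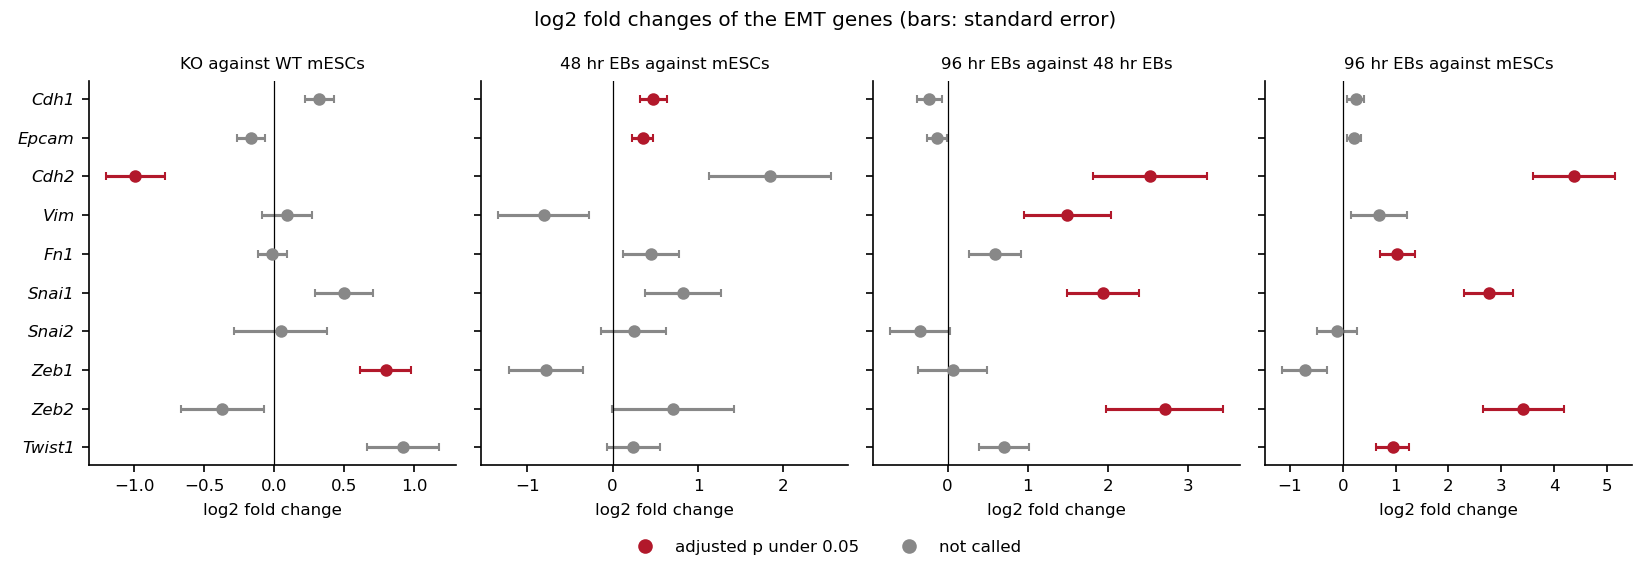
log2 fold change of each of the 10 genes with its standard error in the 4 comparisons, in red where the edgeR adjusted p was under 0.05. The first panel covers 3 KO against 3 WT mESC libraries, the others 6 libraries per stage, and the axes differ between panels. In the last panel Cdh2 stands at 4.38, Zeb2 at 3.42 and Snai1 at 2.76, while Cdh1 (0.25) and Epcam (0.21) lie near 0.

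Wider lists of genes place the 10 members in their pathway. Of 34 epithelial junction and polarity genes, 13 were higher and 1 lower from 48 to 96 hr, and 20 were higher and 2 lower from mESCs to 96 hr, where the median log2 fold changes were 0.50 and 0.56 beside -0.03 and -0.01 over all genes. Of all genes tested, 27.7% passed in the first of these comparisons (13.9% upward, 13.8% downward) and 43% in the second. Without clone E14, 16 of the 34 were higher and 0 lower from 48 to 96 hr, where 24.6% of all genes passed, 12.5% upward and 12.2% downward. Among those with the largest change at 96 hr, the keratins Krt8 (9.17 to 81.5 CPM at 48 hr and 31.7 to 473 CPM at 96 hr; log2 fold change 2.29 ± 0.63, SE, edgeR adjusted p = 0.0128) and Krt18 (13.0 to 48.9 and 40.7 to 258 CPM; 1.77 ± 0.45, adjusted p = 0.00808), which form the filaments of simple epithelia, and the desmosomal cadherin Dsc2 (1.02 to 4.55 and 4.05 to 16.3 CPM; 1.82 ± 0.43, adjusted p = 0.00467) were higher. Without clone E14 the call of Krt8 was lost (1.39, adjusted p = 0.0740), and those of Krt18 (1.25, adjusted p = 0.0188) and Dsc2 (1.81, adjusted p = 0.00657) remained. The tight junction gene Cldn7 was higher at 96 hr than in mESCs (2.64 to 11.8 CPM in mESCs and 13.5 to 38.8 CPM at 96 hr; 2.35 ± 0.49, adjusted p = 0.000783), as was the polarity scaffold gene Patj (9.91 to 22.7 and 36.5 to 77.3 CPM; 2.11 ± 0.25, adjusted p = 2.98e-06). Genes of epithelial junctions were thus higher at the stage at which Cdh2, Snai1 and Zeb2 were higher. Whether both sets rose in the same libraries was not tested.

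Of the 14 epithelial transcription and splicing factors, 2 passed from 48 to 96 hr and both were lower, a smaller share than the 27.7% of all genes tested. Grhl2, an activator of Cdh1 in epithelia, fell by 0.88 ± 0.24 on the log2 scale (SE, edgeR adjusted p = 0.0116), from 101 to 132 CPM at 48 hr to 33.2 to 88.1 CPM at 96 hr, and Ovol2, a repressor of EMT factors, fell by 0.60 ± 0.22 (adjusted p = 0.0461). Without clone E14, Grhl2 kept its call (-0.76, adjusted p = 0.0285) and Ovol2 did not (-0.55, adjusted p = 0.0959). Between mESCs and 48 hr, Klf5 (164 to 216 CPM in mESCs and 27.2 to 62.9 CPM at 48 hr; -2.20 ± 0.18, adjusted p = 9.07e-08) and Tfap2c (31.1 to 65.3 and 8.76 to 18.0 CPM; -1.96 ± 0.27, adjusted p = 3.04e-05) were lower, and the splicing factor Esrp1 was higher (43.3 to 119 and 105 to 186 CPM; 0.98 ± 0.24, adjusted p = 0.00466). In KO against WT mESCs, 2 of the 14 were higher and 2 lower, where 4.79% of all genes passed. Esrp1 fell from 100 ± 20.8 to 48.3 ± 6.21 CPM (SD, n = 3 each; -1.05 ± 0.16, SE, edgeR adjusted p = 0.0125) and Grhl2 from 94.5 ± 6.45 to 58.9 ± 9.60 CPM (-0.68 ± 0.11, adjusted p = 0.0168), with no overlap for either. The higher genes, at low counts and named here after their values were seen, were Tfap2a (1.18 to 1.46 CPM in WT and 2.38 to 3.41 CPM in KO; 1.11 ± 0.23, adjusted p = 0.0360) and Trp63 (0 to 2 counts per WT library and 9 to 34 per KO library, adjusted p = 0.0413). Leaving out 1 mESC library at a time, Grhl2, Tfap2a and Trp63 kept their calls only without KO clone 2, and Esrp1 only without WT clone 1 or KO clone 1.

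Of 43 mesenchymal cytoskeleton and matrix genes tested in the mESCs, 4 were higher and 5 lower in KO, where 3.09% of all genes were higher and 1.69% lower. The smooth muscle genes Acta2 (8.27 ± 3.75 CPM in WT, 0.434 ± 0.193 CPM in KO, SD, n = 3 each; log2 fold change -4.25 ± 0.46, SE, edgeR adjusted p = 0.00588), Tagln (41.8 ± 23.0 and 2.44 ± 1.17 CPM; -4.10 ± 0.48, adjusted p = 0.00644) and Cnn1 (4.99 ± 2.61 and 1.11 ± 0.0983 CPM; -2.16 ± 0.36, adjusted p = 0.0190) were lower. The matrix gene Sparc was higher (118 ± 16 and 247 ± 57.4 CPM; 1.07 ± 0.17, adjusted p = 0.0169), at 99.4 to 128 CPM in the WT and 191 to 305 CPM in the KO libraries. In the KO libraries the 10 endoderm markers summed to 18.0 to 216 CPM. The lowest sum, in KO clone 2, lay within the WT range of 14.5 to 19.5 CPM. The bearing of endoderm cells on the Sparc result was not tested. Without WT clone 2 the edgeR adjusted p rose to 0.0633 for Acta2, 0.0648 for Tagln, 0.0906 for Cnn1 and 0.107 for Sparc. Tagln was also lost without KO clone 2, Cnn1 without KO clone 1, WT clone 3 or KO clone 3, and Sparc without KO clone 1 or either of the other WT clones. From 48 to 96 hr, 19 of the 45 tested passed and all 19 were higher, where 13.9% of all genes were. Without clone E14 it was 13 of 45, all higher, beside 12.5% of all genes. The cadherin Cdh11 lay at 0.0337 to 1.57 CPM at 48 hr and 0.21 to 70.9 CPM at 96 hr, the matrix cross-linking enzyme gene Loxl2 at 1.11 to 3.94 and 10.9 to 57.3 CPM (3.93 ± 0.38, SE, edgeR adjusted p = 6.21e-06) and the growth factor receptor gene Pdgfrb at 1.65 to 2.7 and 3.62 to 19.7 CPM (2.18 ± 0.34, adjusted p = 0.000268).

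Of 29 signals and receptors that induce EMT, 3 were higher and 1 lower between mESCs and 48 hr, and 17 were higher and 1 lower from 48 to 96 hr, with a median log2 fold change of 0.77 at the later step and 11 not passing. The shares over all genes were 14.9% and 13% at the earlier step and 13.9% and 13.8% at the later one. The growth factor genes Fgf8 (log2 fold change 3.72 ± 0.83, SE, edgeR adjusted p = 0.00246) and Fgf5 (3.86 ± 0.89, adjusted p = 0.00299) were already higher at 48 hr than in mESCs. Fgf8 (1.90 to 15.3 CPM at 48 hr and 4.65 to 90.5 CPM at 96 hr; log2 fold change 2.91 ± 0.73, SE, edgeR adjusted p = 0.00722), Wnt3 (0.606 to 8.69 and 1.71 to 43.4 CPM; 2.98 ± 0.85, adjusted p = 0.0152) and Tgfb2 (0.222 to 0.957 and 0.236 to 44.2 CPM; 4.11 ± 1.08, adjusted p = 0.00982), secreted signals of the streak and of EMT, were among those higher from 48 to 96 hr, and their 48 and 96 hr ranges overlapped. Without clone E14, whose 96 hr library holds the 44.2 CPM of Tgfb2, that gene lost its call (2.01, adjusted p = 0.0621), while Fgf8 stood at 3.61 (adjusted p = 0.00314) and Wnt3 at 3.53 (adjusted p = 0.00910), and 13 of the 29 were higher and 2 lower. Of 18 gastrulation EMT genes, 15 passed and all 15 were higher, with a median of 2.96. Brachyury (T), the mesoderm factor of the streak, lay at 0.475 to 18.8 CPM at 48 hr and 0.708 to 510 CPM at 96 hr (5.55 ± 1.44, SE, edgeR adjusted p = 0.00881) and the mesendoderm factor Mixl1 at 0.578 to 2.09 and 1.21 to 140 CPM (5.52 ± 1.08, adjusted p = 0.00141). Without clone E14 the fold was 7.17 for T (adjusted p = 0.00479) and 5.32 for Mixl1 (adjusted p = 0.00507), and 14 of the 18 were higher. Of the 19 other EMT transcription factors, 8 passed and all 8 were higher, beside 13.9% of all genes, and 6 without clone E14, beside 12.5%. In KO against WT mESCs, 1 of 18 such factors passed, a share near the 4.79% of all genes: the chromatin protein gene Hmga2 (16.3 ± 3.61 to 40.8 ± 15.6 CPM, SD, n = 3 each; 1.33 ± 0.27, SE, edgeR adjusted p = 0.0333). Of the 29 signals, 2 were lower and 0 higher, beside 1.69% of all genes lower. Fgf5, a marker of epiblast, was lower (3.34 ± 2.08 to 0.148 ± 0.0822 CPM; -4.44 ± 0.57, adjusted p = 0.00832). The other was Wnt3, named here after its values were seen (0.591 to 1.32 CPM in WT and 0.205 to 0.327 CPM in KO; -1.80, edgeR adjusted p = 0.0451). Wnt3 lost its call without WT clone 1 (adjusted p = 0.103), and it was also the 1 of 17 gastrulation EMT genes tested that passed. Hmga2 lost its call in each of the 6 fits that left out 1 mESC library (adjusted p from 0.0570 to 0.171), and Fgf5 in that without WT clone 2 (adjusted p = 0.0672).

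**Figure D5:**
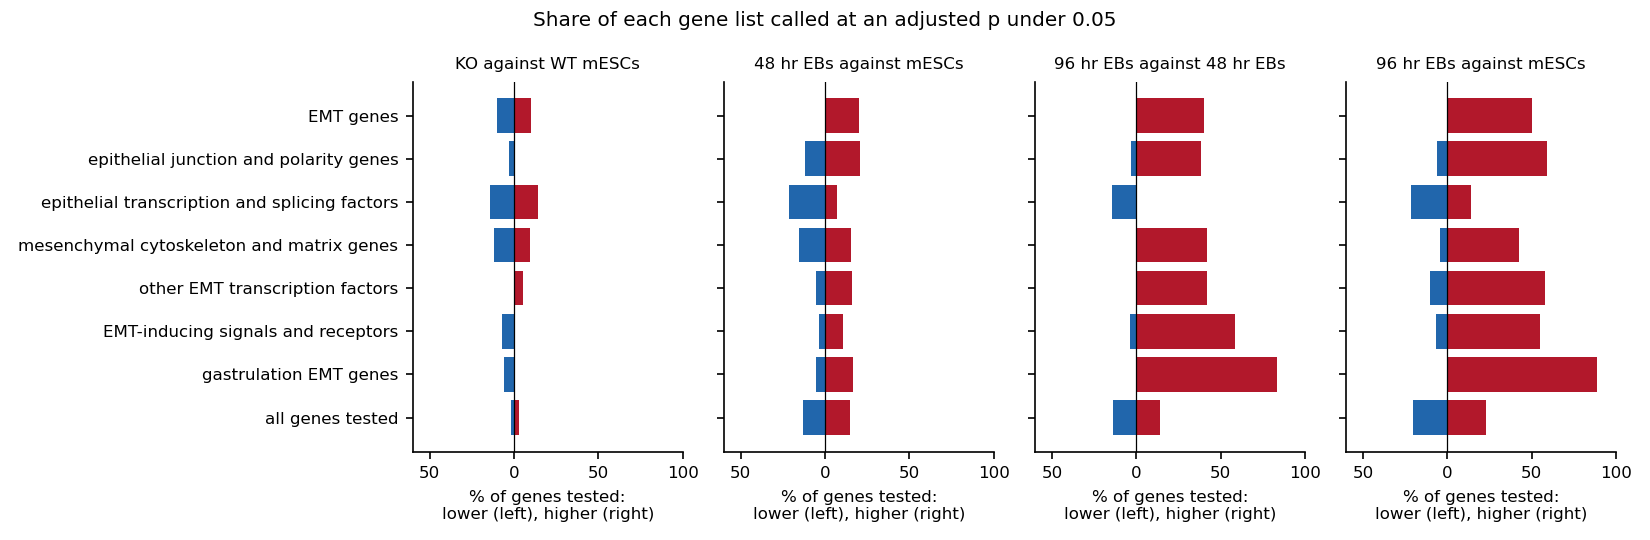
Share of the tested genes of each list that was higher (red, to the right) or lower (blue, to the left) at an edgeR adjusted p under 0.05, with all genes tested at the bottom, in the 4 comparisons. From 48 to 96 hr, 15 of 18 gastrulation EMT genes and 17 of 29 EMT signals and receptors are higher, and 13 of 34 epithelial junction genes are higher too.

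Across the 18 libraries, the genes most like a member were listed by the Pearson correlation of log2 CPM, as a description over libraries that share stage and clone. For Cdh1 the 3 closest of 13177 genes were Hmgb2 (r = 0.97), Lsm6 (0.95) and Wwp2 (0.95), and all 3 lie on chromosome 8. For Cdh2 they were Prkd1 (0.97), Ralgps2 (0.97) and Antxr2 (0.97), and for Snai1 Peg3 (0.98), Maged2 (0.97) and Zfp703 (0.96), with no chromosome shared among the 3 genes of either list.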

How the data were processed

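Per the labels and the study's methods, the authors trimmed reads with Trim Galore 0.6.6, aligned them with STAR 2.7.8 to GRCm38 and assigned the uniquely mapped reads to exons by featureCounts (Subread 2.0.1). The deposited values are whole-number counts for 55487 genes, without normalization, in 18 columns, all of which were used. A deposited table of values on a log scale was not used. Symbols and exon lengths came from GENCODE M21 (GRCm38), which matched 55141 gene identifiers.

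Genes reaching 10 counts in sum across a fit's libraries were tested with edgeR 4.0.16 (TMM, quasi-likelihood, R 4.3.3) and Benjamini-Hochberg adjustment over all genes. KO against WT used the 6 mESC libraries, and stages used all 18. Log2 CPM had a prior count of 2. The main stage fits held stage only, without pairing. The mESC libraries carry no clone code, so clones they may share with the EBs could not be matched. Tests of EBs against mESCs therefore treated these libraries as independent. Since the 48 and 96 hr libraries of each clone code correlated above 0.1 (0.40 to 0.73), they were paired in an alternative fit with the clone code as a block. They were also paired in the exact permutation tests over pairs. Calls from 48 to 96 hr, those of the wider lists included, come from unpaired fits unless the block is named. The mESC replicate numbers did not pair (-0.12 to -0.01). P-values measure the spread between clones. In the stage fits each group pools WT and KO clones, so that spread also holds any difference between the genotypes. In simulated counts, 200 genes were changed by a log2 fold change of 2, and 200 were recovered in each of the comparisons simulated. There were 6 false calls for KO against WT mESCs (21422 genes) and 8 for 48 hr EBs against mESCs (24914 genes). Smaller changes, such as those called among the 10 genes in these comparisons, were not simulated, so their recovery is not known. Alternatives covered scaling, DESeq2 1.42.0, filters, call rule, blocks, left-out libraries and local chromosome level.

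The members and gene lists were chosen with earlier results of these data known. Named list genes are up to 4 per list and comparison, by largest absolute log2 fold change among those called with a mean count of at least 50. Correlated genes are the 3 closest to Cdh1, Cdh2, Snai1 and Vim at that minimum, and those of Vim are not reported here. Promoter windows were from RefSeq on GRCm38.p6.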

Additional observations from a re-analysis of the deposited data

Results flagged for a closer look

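In all, 3 values lay far from the other 5 clones of their stage by Dixon's criterion on log2 CPM, out of 20 groups of 6 libraries looked at, where chance alone gives about 1 in 20. Snai1 in the 48 hr EBs of clone E3 was the highest of its stage at 5.86 CPM, with a gap of 0.649 of the whole range. Snai2 in the 48 hr EBs of clone E14 was the lowest at 0.239 CPM, from 7 counts, with a gap of 0.665. Twist1 in the 96 hr EBs of clone E14 was the highest at 8.39 CPM, with a gap of 0.637, and without that library its log2 fold change between mESCs and 96 hr EBs was 0.58 in place of 0.95 (edgeR adjusted p = 0.0632 in place of 0.0194).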

How the results depend on the processing

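The number of the 10 genes called in KO against WT mESCs (2) was 0 when an absolute log2 fold change over 1 was also asked, 1 with each chromosome's level taken out, and 0 to 4 over the fits that left out 1 library. The mESC replicate numbers are only shared numbers, and with them as a replicate block it was 0. Over all genes the KO count (1046) was 2133 by DESeq2, 631 with that block and 0 to 3736 leaving out 1 library. For 48 hr EBs against mESCs (2) it was 0 with the stricter call, 0 with no low-count filter, 6 with only the 12 libraries compared and 0 to 3 leaving out 1 library. For 96 against 48 hr (4) it was 2 to 5 leaving out 1 library, with 2 without the 96 hr EBs of E14, and for 96 hr against mESCs (5) it was 5 to 7. The signs that turned were all of genes without a call. Leaving out 1 mESC library, the KO log2 fold change ran from -0.23 to 0.30 for Snai2, from -0.055 to 0.26 for Vim and from -0.13 to 0.073 for Fn1, and that of Cdh1 was -0.056 with the window and -0.077 with the chromosome level taken out. Leaving out 1 library of 18, Zeb2 ran from -0.11 to 0.92 at 48 hr against mESCs, Epcam from -0.20 to 0.0013 and Zeb1 from -0.32 to 0.35 at 96 against 48 hr, and Snai2 from -0.40 to 0.074 and Vim from -0.024 to 0.91 at 96 hr against mESCs. Without both libraries of clone E14, Zeb2 was -0.11 at 48 hr against mESCs, Zeb1 -0.54 and Fn1 -0.081 at 96 against 48 hr, and Vim -0.034 at 96 hr against mESCs. With the clone code as a block Zeb1 was -0.033, and with the block and without E14 Zeb1 was -0.52, Fn1 -0.082 and Epcam 0.022. Relative to its 10 Mb window Cdh1 at 96 hr against mESCs was -0.10. The share of promoter windows with an E-box was 66.2% for CANNTG in place of CACCTG, and 2 of the 5 genes with a window held CANNTG. The cause of these shifts was not tested. Analyses of clone E14, of the block without it, of Cdh1 against its neighbours in the EBs and of the wider lists without 1 mESC library were chosen after seeing the data. Low counts limit Snai2.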
